A study of Mus musculus with 6 samples.

Results

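Plasma cells are the antibody-secreting end stage of the B lineage, and 62 of them were found among 20494 filtered cell barcodes of mouse liver immune cells (23890 barcodes as deposited). The cells were chosen by their measured counts: a barcode was taken as a plasma cell when it held at least 20 unique molecular identifiers (UMIs, one per captured RNA molecule) of Jchain, at least 3 UMIs summed over Xbp1, Tnfrsf17 and Mzb1, and few transcripts of other lineages. The limits were under 3 UMIs of Siglech (plasmacytoid dendritic cells), under 2 of Cd3d, Cd3e and Cd3g (T cells), under 4 of 6 macrophage genes and under 10 of S100a8 and S100a9 (neutrophils). The rule found 29 cells in the mock library, 23 in the AAV-sgSCR library and 10 in the AAV-sgBaat library.

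The study asked how bile acid synthesis bears on immune responses in liver cancer. Single-cell RNA sequencing was done on immune cells of livers taken 30 days after infection, with 1 library per group and each library a pool of 3 tumor samples. One group was mock infected, another received an adeno-associated virus (AAV) with the guide named sgSCR, and the last received AAV with a guide against Baat, which encodes the liver enzyme for conjugating bile acids with an amino acid. All 3 groups are described as tumor-bearing livers in one place, while the mock sample is titled native liver in another, and the strain, sex, age and the promoter that drives the guides are not given in the sources used here. T cells (CD45hi CD3+) and the remaining CD45hi cells were collected by sorting, so that shares below are taken outside T cells. With 1 library per group no test is possible, group and library cannot be told apart, and every interval printed covers counting error at the 95% level only. Baat itself had 7, 16 and 1 UMIs in the whole mock, AAV-sgSCR and AAV-sgBaat libraries and 0 in the plasma cells, so these immune cells do not check the edit.

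A B cell that becomes a plasma cell shuts down its B cell receptor program, turns on the transcription factors Blimp-1 (Prdm1), Irf4 and Xbp1, and enlarges its endoplasmic reticulum (ER) to fold and export immunoglobulin. The J chain (Jchain) links IgA into dimers and IgM into pentamers, BCMA (Tnfrsf17) receives survival signals, and Mzb1 assists antibody assembly in the ER. In the gut and liver many plasma cells make IgA, the class that is carried across epithelia into mucus and bile.

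The ER stress response element is the promoter sequence through which Xbp1 and Atf6 are known to act on chaperone genes, and stretches that hold it are shown for 6 genes of the folding and degradation machinery that these cells express. The element, CCAAT and CCACG with a spacer of 9 bases of any kind between them, was searched on both strands of the RefSeq promoter windows (GRCm38.p6, 250 bases before to 50 after each start). It was in 7 of the 19 genes of the ER folding list that had a window (Calr, Canx, Creld2, Dnajc3, Hsp90b1, Hspa5 and Pdia6), in 2 of 18 of the ER stress and degradation list (Derl3 and Syvn1), and in none of 19 ER translocation, 16 plasma cell identity and 15 B cell identity genes. Of all 32851 promoter windows, 39 (0.119%) held it. The related elements named ERSE-II and UPRE were in 1 and 2 of the 19 folding genes, 1 and 0 of the 19 translocation genes, 1 and 0 of the 18 stress genes, 0 and 1 of the 16 identity genes and none of the B cell genes, and in 0.0365% and 0.676% of all windows. Stretches upstream of the start are printed 5′ to 3′ on the gene's strand, with the outer letters of the element in capitals. Hspa5 (the chaperone BiP) is at chr2:34772010-34772058 (+), Hsp90b1 (Grp94) at chr10:86705518-86705671 (-), Calr (calreticulin) at chr8:84847060-84847108 (-), Pdia6 (a disulfide isomerase) at chr12:17266476-17266524 (+), Creld2 at chr15:88819505-88819553 (+), and Derl3 (a channel component of ER-associated degradation) at chr10:75893227-75893275 (+).
Hspa5: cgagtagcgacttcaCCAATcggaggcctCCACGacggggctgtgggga
Hsp90b1: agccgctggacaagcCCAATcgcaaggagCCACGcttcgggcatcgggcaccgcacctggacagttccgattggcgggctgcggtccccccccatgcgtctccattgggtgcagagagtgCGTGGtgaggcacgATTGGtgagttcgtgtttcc
Calr: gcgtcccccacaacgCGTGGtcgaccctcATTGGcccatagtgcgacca
Pdia6: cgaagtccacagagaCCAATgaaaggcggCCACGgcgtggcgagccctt
Creld2: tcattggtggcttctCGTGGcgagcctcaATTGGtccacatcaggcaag
Derl3: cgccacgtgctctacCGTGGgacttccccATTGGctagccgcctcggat
Capitals that read CGTGG before ATTGG are the element on the other strand, and Hsp90b1 holds 1 match on each strand. A match in these letters is a description of the window, not a shown binding site.

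The rule's cut fell in a wide gap. The lowest Jchain counts inside it were 112 and 162 UMIs in mock, 109 and 176 in AAV-sgSCR and 43 and 61 in AAV-sgBaat. The highest counts outside it, among the 521, 252 and 116 barcodes that met the other conditions, were 12, 6 and 1. The gap lies in the gene that chose the cells, and whether plasma cells with little Jchain were missed was not tested. The antibody classes given below are those of cells chosen by Jchain. Jchain, on chromosome 5 (88519809 to 88527897), ranged from 112 to 2394 UMIs per cell in mock with a median of 401, from 109 to 1564 with a median of 453 in AAV-sgSCR, and from 43 to 1310 with a median of 263 in AAV-sgBaat. A further 2, 11 and 7 barcodes passed the Jchain cut but exceeded a limit on another lineage, the T cell limit in 2, 10 and 5 of them, and were left out.

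Sdc1 (syndecan-1, CD138), the surface antigen by which plasma cells are sorted, had a UMI in 22 of 29 mock, 19 of 23 AAV-sgSCR and 7 of 10 AAV-sgBaat cells, against 0.269%, 1.70% and 10.8% of cells in the T cell gate (barcodes whose Cd3d, Cd3e and Cd3g UMIs sum to 2 or more, with further limits given below). Irf4 had a UMI in 26, 11 and 6 cells, against 4.62%, 2.94% and 1.94% of the T cell gate, and Prdm1 in 25, 15 and 3 cells, against 8.17%, 9.76% and 3.45%. Pax5 and Ciita, factors of the B cell state, were at 0 in all plasma cells. Other B cell genes were present, including Cd79a, a receptor signalling chain, in 28, 23 and 9 cells. Macrophage markers, 6 of which the rule limits, summed to 0, 31 and 7 UMIs and neutrophil markers, with S100a8 and S100a9 limited by the rule, to 2, 80 and 17 UMIs (5.57, 363 and 197 CPM, counts per 1000000 non-immunoglobulin UMIs, against 5.77, 525 and 194 in the B cell gate, barcodes with at least 3 UMIs summed over a set of B cell genes that includes Ms4a1, Cd79a and Cd79b). Both gates hold filtered barcodes other than plasma cells. They also had to stay under the rule's macrophage, neutrophil and Siglech limits and under the cut of the other gate, so their neutrophil and macrophage counts are limited too. Of 12 macrophage genes 0, 5 and 3 were detected, with Cd68 at 19 UMIs in AAV-sgSCR and Adgre1, which the rule does not use, at 0 in all libraries. Of 8 neutrophil genes 2, 6 and 5 were detected, with Csf3r and Cxcr2 at 0 in all libraries. The plasma cell identity list summed to 5327, 8745 and 4518 CPM in plasma cells and to 2985, 2995 and 2608 CPM in the B cell gate. In a gate of plasmacytoid dendritic cells (at least 3 Siglech UMIs) it stood at 5937, 6096 and 7851 CPM. The sum of this list was thus not particular to plasma cells.

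The 20 non-immunoglobulin genes that led the cells over all other filtered barcodes were Tnfrsf17, Jchain, Derl3, Cacna1h, Ccr10, Prlr, Oosp1, Eaf2, Dnm3, Pls1, Chst1, Prg2, Sspn, Bhlha15, Fkbp11, Rhobtb1, Reln, Cacna1s, Mzb1 and Gm49504. This order describes the cells and tests nothing, since the rule chose them by 3 of these genes and every gene was measured in the same cells. Tnfrsf17 averaged 703 CPM in plasma cells against 0.430 in the other barcodes. Bhlha15 (Mist1), a transcription factor of secretory cells, averaged 54.3 against 0.665 CPM. CPM leaves out immunoglobulin UMIs, because antibody RNA took a large and variable share of each cell.

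The plasma cells were a small part of each library. They made up 0.740% (0.496 to 1.06) of barcodes without T cell transcripts in mock, 0.658% (0.417 to 0.985) in AAV-sgSCR and 0.372% (0.179 to 0.684) in AAV-sgBaat. These intervals (Clopper-Pearson) overlap. Without the limits on other lineages the cells numbered 31, 34 and 17 in mock, AAV-sgSCR and AAV-sgBaat, and the share was then highest in AAV-sgSCR. Of all filtered barcodes they were 0.478%, 0.314% and 0.141%, in the same order. The few cells carried 41.0%, 49.9% and 46.3% of all immunoglobulin UMIs of the filtered barcodes, and 94.7%, 51.6% and 58.4% of all Jchain UMIs. Jchain also had a UMI in 1.72%, 8.10% and 1.30% of T cell gate barcodes, a cell type that does not make it.

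Each cell was given the heavy chain constant gene that held at least 50% of its heavy chain UMIs, and in 58 of 62 cells that gene held over 95%. IgA (Igha, chromosome 12, 113256204 to 113260236) was made by 22 of 29 mock cells (75.9%, 56.5 to 89.7), 10 of 23 AAV-sgSCR cells (43.5%, 23.2 to 65.5) and 9 of 10 AAV-sgBaat cells (90%, 55.5 to 99.7). The share was lowest in AAV-sgSCR, and its interval overlaps those of mock and AAV-sgBaat. IgM (Ighm) was made by 8 of 23 AAV-sgSCR cells (34.8%, 16.4 to 57.3), by 0 of 29 mock cells, which allows a share of up to 10.3%, and by 0 of 10 AAV-sgBaat cells, which allows a share of up to 30%. The AAV-sgSCR interval lies above what 0 of 29 allows, but not above what 0 of 10 allows.

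IgG was made by 7 mock cells (4 Ighg2c and 3 Ighg2b), 5 AAV-sgSCR cells (2 Ighg2c, 2 Ighg2b and 1 Ighg1) and 1 AAV-sgBaat cell (Ighg2c). No cell made IgD, IgE or IgG3. T cell gate barcodes had a median of 1, 0 and 1 UMIs of Ighm and 0 of Igha in mock, AAV-sgSCR and AAV-sgBaat, with an Ighm UMI in 58.8%, 39.1% and 52.4% of them, while the plasma cells held between 52 and 5687 heavy chain UMIs each. Kappa light chain was used by 25 of 29, 19 of 23 and 10 of 10 cells, and lambda by the others.

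**Figure D1:**
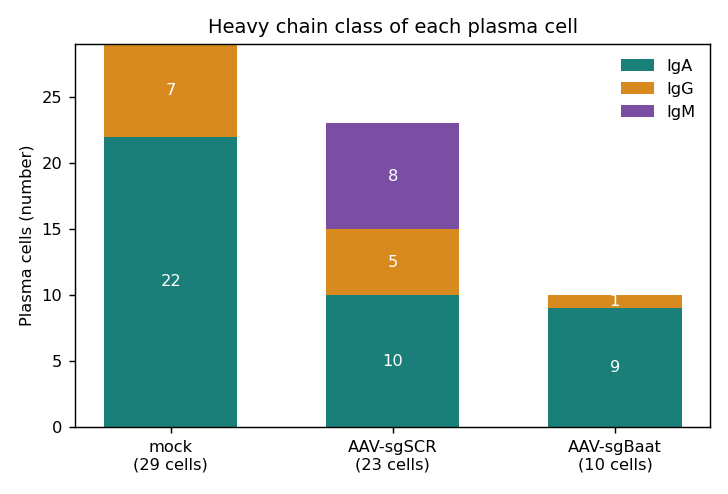
The bars stack the number of plasma cells (y axis) of each heavy chain class, IgA, IgG and IgM, in the mock, AAV-sgSCR and AAV-sgBaat libraries. IgM appears in the AAV-sgSCR bar alone, with 8 of 23 cells, and IgA makes up 22 of 29 mock and 9 of 10 AAV-sgBaat cells.

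Immunoglobulin genes took a median of 27.6% of a cell's UMIs in mock, 51.7% in AAV-sgSCR and 36.3% in AAV-sgBaat. The single cells ranged from 7.15% to 66.3% in mock, from 11.3% to 64.8% in AAV-sgSCR and from 15.9% to 67.1% in AAV-sgBaat, so the libraries overlap over nearly the whole range. Within IgA cells the medians were 27.5%, 39.8% and 38.7%, and the 8 IgM cells had a median of 45.5%, none of them below 34.3%. Cells held a median of 16520, 16226 and 15259 gene UMIs in mock, AAV-sgSCR and AAV-sgBaat, against 4164, 5911 and 3811.5 in all filtered barcodes. In AAV-sgBaat the sum over plasma cells, 86318 non-immunoglobulin UMIs against 359302 in mock and 220466 in AAV-sgSCR, rested to a large part on 1 cell of 34762 UMIs, and the 2 shallowest cells had 1988 and 1411.

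**Figure D2:**
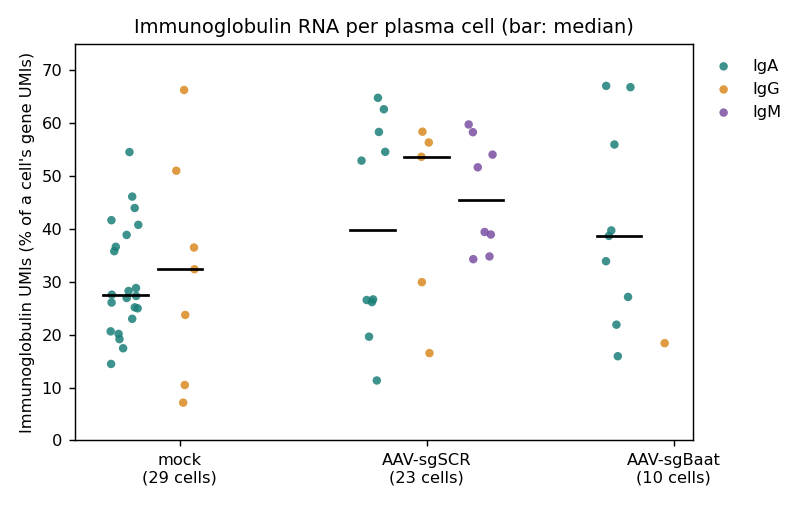
Each point is 1 plasma cell, with its immunoglobulin UMIs as percent of its gene UMIs on the y axis, placed by library and coloured by heavy chain class; the bar is the median of a class with over 1 cell. The classes and libraries overlap, and the 8 IgM cells of AAV-sgSCR lie between 34.3% and 59.8%.

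A heavy chain V gene could be called in 45 of 62 cells (at least 5 UMIs and 50% of the cell's V UMIs of that chain), with 28 different genes among them. Ighv1-81 (chromosome 12, 115920279 to 115920572) was the V gene of 9 cells, while no other was called in more than 2. By the same rule over both light chain loci together, 9 of the 37 cells with both chains called shared their pair with another cell, and 3 of these carried Ighv1-81 with Igkv1-110, while 3 other pairs were held by 2 cells each. When the light V gene was looked for only within the locus of the cell's own constant chain, a choice made after seeing the data, 44 cells had both chains called and Ighv1-81 with Igkv1-110 was the pair of 8 cells. Of those 8, 4 were in mock, 4 in AAV-sgBaat and 0 in AAV-sgSCR, and 4 made IgA, 3 IgG2c and 1 IgG2b. The pair was thus found in 3 of the 7 IgG2c cells, among them the cells of mock and AAV-sgBaat with the most cell cycle UMIs (114 and 28).

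In these 8 cells Igkv1-110 held 64.7% to 84.6% of the kappa V UMIs, and near-identical V genes may have split reads. Elsewhere the 2 genes were rare. Ighv1-81 had a UMI in 0.479%, 0.676% and 0.503% of cells in the B cell gate of mock, AAV-sgSCR and AAV-sgBaat, and Igkv1-110 in 0.991%, 1.76% and 0.754%. In the T cell gate of mock, AAV-sgSCR and AAV-sgBaat, 0.0538%, 0% and 0.648% of barcodes had a UMI of Ighv1-81. For Igkv1-110 these shares were 0%, 0.0387% and 0.691%. The T cell gate of AAV-sgBaat held 28 and 50 UMIs of the 2 genes, against 2 and 3 in its B cell gate. The source of this RNA was not tested. The 3′ libraries hold no junction sequence, so no clone was called, and the pool of 3 samples does not say how many animals carried the pair. The other pairs found by the search within the own locus were Ighv14-3 with Igkv4-72, in 2 IgM cells, and Ighv14-4 with Igkv4-70, in 2 IgG cells, all of AAV-sgSCR.

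Few plasma cells carried many cell cycle transcripts. At least 5 UMIs over 8 cell cycle genes (Mki67, Top2a, Cdk1, Birc5, Ube2c, Ccnb2, Nusap1 and Tpx2) were found in 4 of 29 mock cells (13.8%, 3.89 to 31.7), 2 of 23 AAV-sgSCR cells (8.70%, 1.07 to 28.0) and 2 of 10 AAV-sgBaat cells (20%, 2.52 to 55.6). The counts of these cells were 114, 45, 11 and 6 in mock, 26 and 6 in AAV-sgSCR, and 28 and 12 in AAV-sgBaat. After every cell was thinned to 1000 UMIs, 27.6%, 13.0% and 40% had any such UMI. The intervals overlap for both measures.

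IgA cells were set against the other plasma cells of their own library. The comparison was made in mock (22 IgA against 7 other cells) and in AAV-sgSCR (10 against 13), 2 libraries that share no cells. Of 1231 genes tested in mock (20 UMIs or more, in 5 cells or more, on the higher side), 127 (10.3%) were at least 2-fold higher in IgA cells and 56 (4.55%) at least 2-fold lower. Of 764 tested in AAV-sgSCR, 109 (14.3%) were higher and 86 (11.3%) lower. Among the 693 genes tested in both, 32 were higher in IgA cells of mock and 99 in those of AAV-sgSCR, and 25 and 58 were lower. Of these, 13 were higher in both libraries (40.6% of the 32 and 13.1% of the 99), 4 were lower in both (16% and 6.90%), and 9 went opposite ways. The homing and adhesion list had 5 genes higher and 6 lower in IgA cells of mock (median -0.05, against 0.16 for all genes tested) and 5 higher and 1 lower in AAV-sgSCR (0.91, against 0.01), and the survival list 4 and 2 (0.13) and 0 and 4 (-0.90). Without cycling cells 170 genes were higher and 24 lower in mock, and 48 and 82 in AAV-sgSCR. Without the deepest cell of each side 60 were higher and 64 lower in AAV-sgSCR.

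Ccr10, the receptor for the mucosal chemokine CCL28 and a hallmark of IgA-secreting cells, was the clearest of the 13 (chromosome 11, 101172998 to 101175443). In mock it had 62 UMIs in 16 of 22 IgA cells (250 CPM, 192 to 321) and 1 UMI in the 7 IgG cells (8.97 CPM, 0.227 to 49.98), a log2 ratio between 2.27 and 10.1. In AAV-sgSCR it had 39 UMIs in 9 of 10 IgA cells (431 CPM, 306 to 589), 2 in the 5 IgG cells and 0 in the 8 IgM cells, a log2 ratio of 4.81 (2.86 to 7.90) for IgA over all others. In AAV-sgBaat 6 of 9 IgA cells held 53 UMIs (915 CPM, 685 to 1200), and the 1 IgG cell held 8. Cells with 19, 16 and 13 UMIs held most of those 53. The median count per IgA cell was 2, 3 and 2 in mock, AAV-sgSCR and AAV-sgBaat. By summed CPM IgA cells were the higher group in all 3 libraries. In the T cell gate 1.13%, 0.387% and 0.345% of barcodes had a Ccr10 UMI.

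Tnfrsf17, the BCMA receptor and 1 of the rule's genes, was at 1106 CPM in IgA and 170 CPM in other mock cells, a log2 ratio of 2.70 (2.03 to 3.45). In AAV-sgSCR it was at 541 CPM in IgA, 301 CPM in IgG and 65.1 CPM in IgM cells. Itgb7, the beta chain of the gut-homing integrins, was at 379 against 108 CPM in mock, a log2 ratio of 1.82 (0.95 to 2.82). In AAV-sgSCR Itgb7 had 26 UMIs in 7 of 10 IgA cells, 6 in the IgG cells and 0 in the 8 IgM cells, a log2 ratio of 2.64 (1.32 to 4.21). The other 10 were Atp1b1, Crip1, Emp3, Glipr1, Ifi27l2a, Lsp1, Ndufa4, Ptms, S100a11 and Ybx3. Crip1 in AAV-sgSCR rested on few cells, since 1 IgA cell held 64% of its IgA UMIs.

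The 4 genes lower in IgA cells of both libraries were Slpi, Ly6c2, Ly6a and Zfp36. Slpi encodes a secreted inhibitor of leukocyte proteases (chromosome 2, 164354070 to 164356507). It was at 161 CPM in IgA and 5131 CPM in IgG cells of mock, a log2 ratio of -4.99 (-5.49 to -4.53), and 1 IgG cell held 44.9% of the IgG UMIs. In AAV-sgSCR it was at 851 CPM in IgA, 33348 CPM in IgG and 3335 CPM in IgM cells, and 1 IgG cell held 1251 of the 1774 IgG UMIs. Without the deepest cell of each side the log2 ratio in AAV-sgSCR went from -4.20 to -2.65, and in mock from -4.99 to -6.18.

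Ly6c2, a surface antigen of plasma cells and other leukocytes, was at 363 against 1884 CPM in mock, a log2 ratio of -2.37 (-2.75 to -2.01). In AAV-sgSCR it was at 519 CPM in IgA, 8140 CPM in IgG and 2514 CPM in IgM cells. A single IgG cell held 347 of the 433 IgG UMIs in AAV-sgSCR and 112 of the 210 in mock. Median counts per cell were 2.5 in IgA, 28 in IgG and 12.5 in IgM cells of AAV-sgSCR, and 3.5 in IgA and 9 in IgG cells of mock. Ly6a (Sca-1) was at 129 against 951 CPM in mock and at 332 against 1462 CPM in AAV-sgSCR, where 1 IgG cell held 83 of the 101 IgG UMIs. In AAV-sgBaat these 3 genes did not follow that order, with Slpi at 1001 CPM, Ly6c2 at 673 CPM and Ly6a at 1260 CPM in the 9 IgA cells against 0, 1 and 5 UMIs in the 1 IgG cell.

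**Figure D3:**
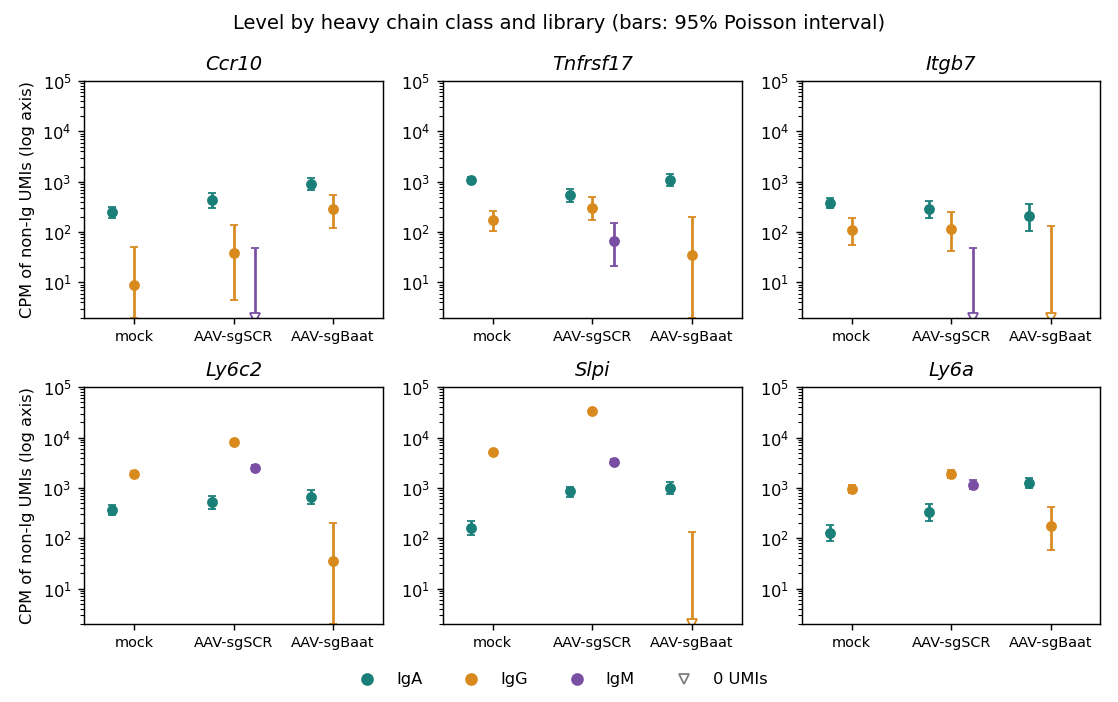
Each panel gives 1 gene's level in CPM of non-immunoglobulin UMIs (log axis) by library and heavy chain class, with 95% Poisson intervals; open triangles mark 0 UMIs. Ccr10, Tnfrsf17 and Itgb7 are highest in IgA cells of each library, while Ly6c2, Slpi and Ly6a are lower in IgA than in other cells of mock and AAV-sgSCR but not of AAV-sgBaat, where the other class is 1 cell.

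The 8 IgM cells also differed in level from IgA cells of their library. Chst1, a sulfotransferase gene and 1 of the 20 leading genes, had 20 UMIs in 5 of the 8 IgM cells and 0 in all others. Prg2, best known as an eosinophil granule protein and also found in plasma cells, had 74 UMIs in all 8 IgM cells (964 CPM) and 116 in 3 of the 5 IgG cells of AAV-sgSCR (2181 CPM), against 7 in its 10 IgA cells (77.4 CPM). A single IgG cell held 67 of those 116 UMIs. Cacna1s, a calcium channel subunit, was in all 8 IgM cells (352 CPM, 232 to 512), at 244 CPM (130 to 418) in IgG cells and at 55.3 CPM in IgA cells of the same library. Ms4a1 (CD20), a B cell antigen lost in mature plasma cells, had 13 UMIs in 4 of the 8 IgM cells, 4 in IgG cells and 0 in IgA cells of AAV-sgSCR. In mock Ms4a1 had 18 UMIs in the 7 IgG cells (161 CPM) and 5 in the 22 IgA cells (20.2 CPM). A single IgG cell, the one with 114 cell cycle UMIs, held 12 of those 18.

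AAV-sgBaat against AAV-sgSCR compares the edited group with its vector control. Of 1013 genes tested, 52 (5.13%) were at least 2-fold higher and 138 (13.6%) at least 2-fold lower in AAV-sgBaat, and the median log2 ratio over all tested genes was -0.16. Without the deepest cell of each library 15 of 873 genes were higher and 117 lower. With all gene UMIs as the denominator 72 were higher and 109 lower, so that higher genes went from 27.4% to 39.8% of those past 2-fold. In IgA cells alone 16 of 560 genes were higher and 36 lower.

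Of the 8 highest ratios, Tubb4b (a tubulin), Stmn1 (a microtubule regulator), Hmgb2 (a chromatin protein) and Ube2s (a mitotic ubiquitin enzyme) are genes of dividing cells. They were at log2 ratios of 2.55, 2.25, 2.21 and 2.00, and a single cell held 76.9%, 53.8%, 59.6% and 50% of their AAV-sgBaat UMIs. In Ccr10 a single cell held 31.1%. It had 61 UMIs in 7 of 10 AAV-sgBaat cells (707 CPM) against 41 UMIs in 11 of 23 AAV-sgSCR cells (186 CPM), a log2 ratio of 1.93 (1.33 to 2.53), and 63 UMIs in 17 of 29 mock cells (175 CPM). Among IgA cells alone the log2 ratio was 1.09, while the median count per IgA cell was 2 in AAV-sgBaat and 3 in AAV-sgSCR. The others were Yif1b, a transport protein of the early secretory pathway, at 1.75, Ddt, a homologue of the cytokine MIF, at 1.74, and Myl4, a myosin light chain, at 1.71.

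The 8 lowest ratios included Slpi, at 672 CPM in AAV-sgBaat and 9557 CPM in AAV-sgSCR, a log2 ratio of -3.83 (-4.23 to -3.45). Ly6c2 was at 463 against 3053 CPM, a log2 ratio of -2.72 (-3.22 to -2.26). Both genes were low in IgA cells, and among IgA cells alone the log2 ratios were 0.23 and 0.37. Mt1, a metallothionein that binds zinc, had 12 UMIs in 2 cells against 206 in 16, a log2 ratio of -2.75, and -3.53 among IgA cells. Without the deepest cell of each library Slpi was at -2.06 and Ly6c2 at -1.24.

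Cited2, a transcriptional coregulator, was at 116 against 762 CPM (log2 ratio -2.72) and at -1.86 in IgA cells. Zfp36l2, which promotes decay of messenger RNA, was at 127 against 839 CPM (-2.72) and at -0.19 in IgA cells. Zbtb20, a factor that supports plasma cell survival, had 3 UMIs against 82, a log2 ratio of -3.42 (-5.73 to -1.82). Pou2f2 (Oct-2), an immunoglobulin gene activator, had 1 against 50 UMIs, a log2 ratio of -4.29 (-9.62 to -1.75), and the oocyte-named gene Oosp1 had 1 against 55, a log2 ratio of -4.43 (-9.76 to -1.89).

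**Figure D4:**
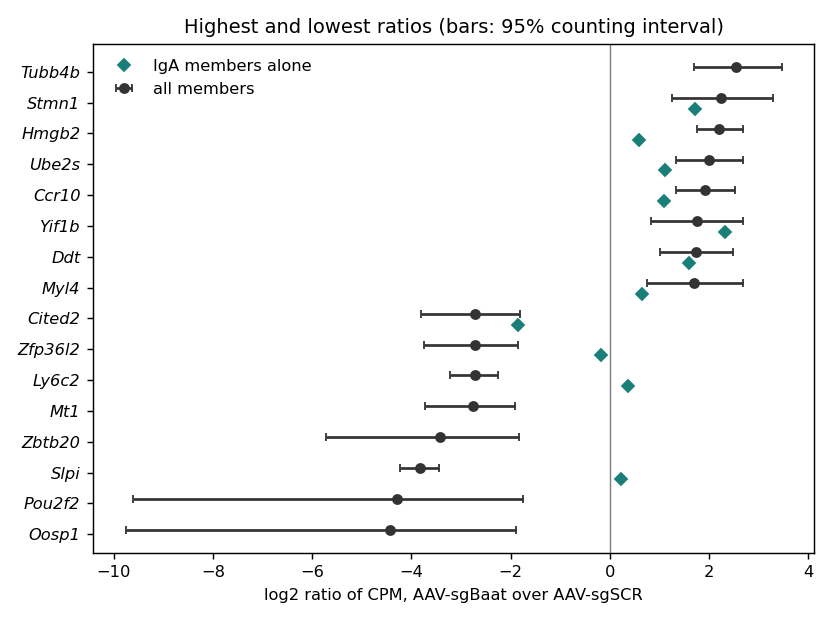
Points give the log2 ratio of CPM, AAV-sgBaat over AAV-sgSCR, of the 8 highest and 8 lowest genes over all plasma cells with 95% counting intervals, and diamonds the same ratio among IgA cells alone where at least 20 UMIs were held. Slpi and Ly6c2 move from -3.83 and -2.72 to 0.23 and 0.37, while Ccr10 stays above 0 at 1.09.

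Against mock, which also had no vector, the same filter again favoured lower genes, since the AAV-sgBaat sum was the smaller. Of 1600 genes tested, 25 (1.56%) were at least 2-fold higher and 277 (17.3%) at least 2-fold lower, with a median log2 ratio of -0.38 over all of them. The highest were Jun, an immediate early transcription factor (938 against 223 CPM, log2 ratio 2.08), Ccr10 (2.01), Ddt (1.78) and Ppp1r14b, a phosphatase inhibitor (1.65). The lowest were Tnrc6b, a partner of microRNAs (-3.21), Tuba1a, a tubulin (-2.64), Man1a, a Golgi mannosidase that trims glycans (-2.62), and Gsk3b, a kinase (-2.40), each with 2 or 3 UMIs in AAV-sgBaat. Without the deepest cell of each library 11 genes were higher and 149 lower. With all gene UMIs as the denominator the median was -0.48, and 15 genes were higher and 418 lower. With 1 UMI in both libraries as the only filter the median was 0.15, and 2430 genes were higher and 269 lower. Sums under 3 were set to 3 in these counts, and the AAV-sgBaat sum was the smaller (86318 against 359302 UMIs). A gene with at most 3 UMIs in both libraries thus counted as past 2-fold higher. The direction of these counts turned with the filter, and with 1 UMI as filter they do not describe expression.

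AAV-sgSCR against mock compares the vector with no vector. Of 2059 genes tested, 65 (3.16%) were at least 2-fold higher and 229 (11.1%) at least 2-fold lower, with a median log2 ratio of -0.22. With all gene UMIs as the denominator that median was -0.53, and 38 genes were higher and 475 lower, so that higher genes went from 22.1% to 7.41% of those past 2-fold. With 1 UMI in both libraries as the only filter 683 genes were higher and 592 lower. The metallothioneins Mt1 (206 against 21 UMIs, log2 ratio between 3.35 and 4.72, and 1.82 in IgA cells alone) and Mt2 (43 against 2, log2 ratio 5.13, 3.19 to 8.22) and Prg2 (197 against 21, log2 ratio 3.93) were among the 4 highest. The other was S100a9, with 42 UMIs in 19 cells against 1, a log2 ratio of 6.10 (3.54 to 11.4). S100a9 was at 191 CPM in these plasma cells and at 208 CPM in the T cell gate of the same library, and both the rule and the gate limit it.

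The lowest of AAV-sgSCR over mock were Cdc42se1, a small effector of the GTPase Cdc42 (-3.91), Gpr183, the oxysterol receptor EBI2 (-3.47), Isg15, an interferon-induced ubiquitin-like protein (-3.30), and Myadm, a membrane protein (-2.94). Isg15 had 48 UMIs in 5 of the 29 mock cells against 3 UMIs in 3 AAV-sgSCR cells. All 3 comparisons share a library with each other, so their lists are not independent.

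The ER folding list was lower than mock in 21 of 23 measured genes in AAV-sgSCR (median log2 ratio -0.38, against -0.22 for all genes tested) and in 17 of 23 in AAV-sgBaat (-0.57, against -0.38). Between AAV-sgBaat and AAV-sgSCR 11 of its 22 genes were higher and 11 lower (-0.01, or 0.14 with all gene UMIs as denominator). Hsp90b1 was at 9527, 4872 and 5989 CPM and Hspa5 at 4261, 2204 and 2004 CPM in mock, AAV-sgSCR and AAV-sgBaat. The mock level of each was the highest, and the cells overlapped, with Hspa5 at 2 to 287, 0 to 90 and 0 to 42 UMIs per cell. Summed over its 23 genes the list stood at 33699, 23087 and 24387 CPM in plasma cells and at 2238, 2366 and 2683 CPM in the B cell gate.

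The ER translocation list, with the Sec61 channel, signal peptidase and oligosaccharyltransferase subunits, had 21 of 25 genes higher for AAV-sgBaat over AAV-sgSCR (median 0.26, and 0.08 in IgA cells alone). Against mock 16 of 25 were higher (0.07), a median that was -0.12 with all gene UMIs as denominator and -0.04 as a mean of per-cell CPM. For AAV-sgSCR over mock 7 were higher and 18 lower (-0.33). Of its 21 genes tested for AAV-sgBaat over AAV-sgSCR, 1 was past 2-fold higher and 1 past 2-fold lower, against 5.13% and 13.6% of all genes tested. The higher one was Ssr2, a subunit of the translocon-associated complex (80 against 102 UMIs). The ER stress and degradation list was lower in 15 of 16 genes for AAV-sgBaat over mock (-0.56) and in 13 of 17 for AAV-sgSCR over mock (-0.30), against -0.38 and -0.22 for all genes tested. Its sum was also highest in mock in the B cell gate (1490, 1149 and 1189 CPM) and the T cell gate (1245, 935 and 813 CPM). For AAV-sgBaat over AAV-sgSCR it was lower in 10 of 15 (-0.23), with Herpud1 at -1.44.

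Plasma cell identity genes were mixed. For AAV-sgBaat over AAV-sgSCR 4 of 15 were higher and 11 lower (-0.47, but 0.23 in IgA cells alone), among the lower ones Prdm1 (5 against 30 UMIs, -1.23), Sdc1 (-1.07), the TACI receptor gene Tnfrsf13b (-0.99) and Zbtb20 above. For AAV-sgSCR over mock 8 of 17 were higher and 9 lower (-0.04), with Ly6d at 2.12 and Ly6c2 at 1.87. In IgA cells alone Ly6d was at 586 CPM in AAV-sgSCR against 359 CPM in mock, and Ly6c2 at 519 against 363 CPM. B cell identity genes were lower in 4 of 7 for AAV-sgBaat over AAV-sgSCR, with a median of -0.17 beside -0.16 for all genes tested. Cd74, the class II invariant chain, was at -1.65, with 182 against 1454 UMIs. In IgA cells alone Cd74 was at 2588 against 3779 CPM, while the IgM and IgG cells of AAV-sgSCR were at 8102 and 9211 CPM.

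Homing and adhesion genes were lower than mock in 11 of 13 for AAV-sgSCR (-1.02) and in 9 of 12 for AAV-sgBaat (-0.91), against -0.22 and -0.38 for all genes tested. The list's sum was 2830, 1520 and 2248 CPM in the plasma cells of mock, AAV-sgSCR and AAV-sgBaat, and it was also highest in mock in the B cell gate (5318, 1894 and 1993 CPM) and the T cell gate (3748, 1988 and 1081 CPM). Itga4, the alpha chain that pairs with Itgb7, was at 590, 272 and 290 CPM and Klf2, which controls exit from tissues, at 902, 390 and 521 CPM in mock, AAV-sgSCR and AAV-sgBaat. S1pr1, the exit receptor, had 22, 2 and 4 UMIs. The 3 genes higher in AAV-sgBaat than in mock were Ccr10 (2.01), the inflammatory chemokine receptor gene Cxcr3 (0.47, 6 against 18 UMIs) and Selplg (0.37), a selectin ligand. Cxcr4, which holds plasma cells in bone marrow, had 9, 2 and 0 UMIs. Ccr9, the small intestine receptor, had 4, 14 and 0.

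Transcripts of the mitochondrial genome were lower in AAV-sgBaat in 12 of 12 genes against AAV-sgSCR (-0.62) and in 13 of 13 against mock (-0.71), and AAV-sgSCR stood near mock (6 of 13 higher, -0.02, or 0.14 as a mean of per-cell CPM). Their sum was 45382, 45735 and 27364 CPM in plasma cells and 50503, 57519 and 33449 CPM in the B cell gate, so the AAV-sgBaat library was the lowest in both cell types. The nuclear-encoded respiratory chain genes went the other way, with 16 of 19 higher for AAV-sgBaat over AAV-sgSCR (0.37) and 17 of 20 over mock (0.44). Their sum was 8227, 7579 and 9546 CPM in plasma cells. It was also highest in AAV-sgBaat in the B cell gate (3633, 6061 and 7051 CPM) and the T cell gate (4457, 5910 and 8637 CPM). Cells with over 10% mitochondrial UMIs had been removed. The part of cell quality in these values was not tested.

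Interferon-induced genes were lower in AAV-sgSCR than in mock in 7 of 8 (-1.55), while AAV-sgBaat over mock had 5 of 8 lower (-0.35). MHC class I genes were at medians of -0.23, -0.03 and 0.14 for AAV-sgBaat over AAV-sgSCR, AAV-sgBaat over mock and AAV-sgSCR over mock, the last -0.19 with all gene UMIs as denominator. Immediate early and heat shock genes were at -0.55, -0.06 and 0.24, and their directions turned with the scaling, to 0.22 and 0.41 for the first pair as means of per-cell CPM and to -0.09 for the last with all gene UMIs as denominator. Survival genes were at 0.17 (4 genes), -0.37 (9) and -0.09 (10), with Mcl1, which plasma cells need to survive, at 543, 503 and 579 CPM in mock, AAV-sgSCR and AAV-sgBaat. Proliferation genes were higher in 5 of 5 for AAV-sgBaat over AAV-sgSCR (2.21, or 0.93 in IgA cells alone and 1.58 without the deepest cells), of which 2 met the filter of the gene comparison, and lower in 7 of 7 for AAV-sgSCR over mock (-1.20), and the latter median was 1.34 over 3 genes among IgA cells alone. Their sum was 1431, 689 and 3093 CPM in plasma cells of mock, AAV-sgSCR and AAV-sgBaat. It was also highest in AAV-sgBaat in the B cell gate (495, 5455 and 6729 CPM) and the T cell gate (1459, 2512 and 6520 CPM), where AAV-sgSCR lay above mock.

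**Figure D5:**
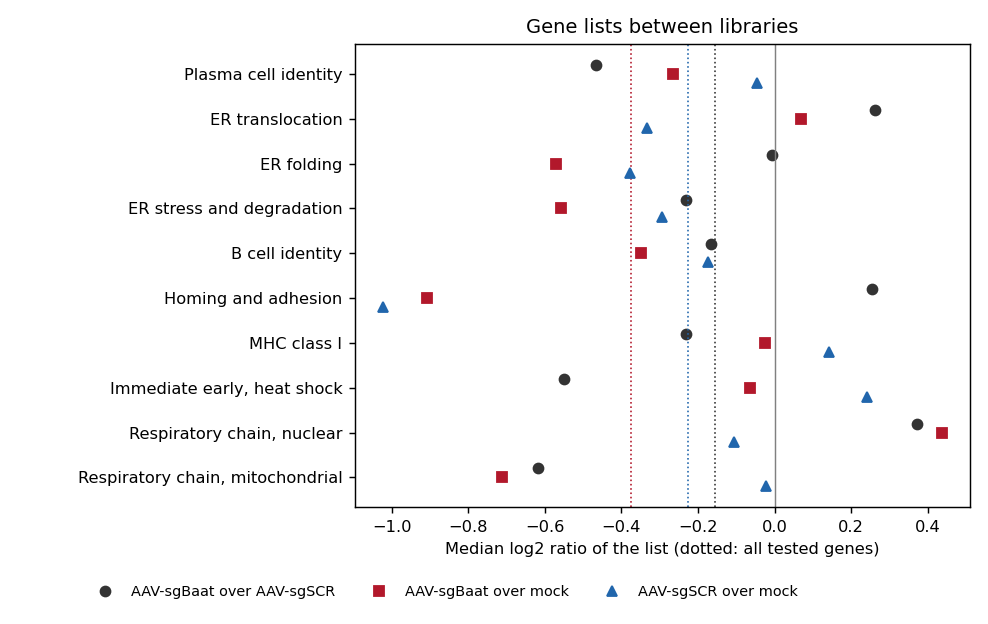
Points give the median log2 ratio (x axis) of the measured genes of 10 lists in the 3 library comparisons, and dotted lines the median over all tested genes of the same comparison. Homing genes lie at -1.02 and -0.91 against mock, and mitochondrial transcripts at -0.62 and -0.71 for AAV-sgBaat, while the ER lists lie between -0.57 and 0.26.

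The 18 immunoregulatory genes summed to 431, 193 and 99 UMIs in mock, AAV-sgSCR and AAV-sgBaat (1200, 875 and 1147 CPM), and 12, 10 and 6 of them were detected. Lgals1 (galectin-1) held 244, 103 and 73 of these UMIs. Il10 had 1, 2 and 0 UMIs and Tnf 0 in every library, while Tgfb1 had 11, 14 and 2. Cd274 (PD-L1) had 55 UMIs in 18 of 29 mock cells (153 CPM, 115 to 199), 10 UMIs in 7 of 23 AAV-sgSCR cells (45.4 CPM, 21.8 to 83.4) and 4 UMIs in 2 of 10 AAV-sgBaat cells (46.3 CPM, 12.6 to 119), against 9.57%, 8.25% and 3.93% of the T cell gate. Among the bile acid receptors, Nr1h4 (FXR), Gpbar1 (TGR5), Vdr and Nr1i2 had 0 UMIs in all 62 cells, and S1pr2 had 1, 1 and 0. With 3 UMIs as the limit that a count of 0 allows, low expression of these genes was not detectable at this depth.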

How the data were processed

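The authors deposited unnormalised UMI counts for each gene and barcode, made with Cell Ranger 6.0.1 on mm10, per the file headers and the submitters' processing notes. Antibody tag counts sit in the same deposited matrices. The 3 antibody samples were not analysed here apart from those tags. Depth was 32005400 (mock), 62570529 (AAV-sgSCR) and 48359443 (AAV-sgBaat) gene UMIs. Barcodes with at least 500 genes, 1000 gene UMIs and at most 10% mitochondrial UMIs were kept. Libraries shared 17, 10 and 25 deposited barcodes, and no plasma cell was shared. Top Scrublet scores (scanpy 1.11.5, 0.8% per 1000 barcodes) removed no plasma cell.

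UMIs were summed per library and divided by non-immunoglobulin gene UMIs. Ratios were ranked with sums under 3 set to 3, and carry exact binomial intervals, and levels carry exact Poisson intervals. List genes needed at least 20 UMIs over both libraries, unlike the genes tested, which needed them on the higher side. On simulated data for AAV-sgBaat over AAV-sgSCR with 200 genes changed by 2 on the log2 scale among 1070 tested, 97.0% were recovered and 6.64% of unchanged genes passed 2-fold by counting error. The simulated sums were Poisson counts with no spread between cells and no filter on the number of cells. The changed genes were drawn only from those with higher expected counts. Both values thus cover counting error alone and do not give the error rate of the real comparison, where single cells can hold most UMIs.

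Named genes are the 8 highest and 8 lowest of AAV-sgBaat over AAV-sgSCR, the 4 and 4 of each library over mock (without immunoglobulin, mitochondrial, ribosomal, hepatocyte, unnamed and sex-linked genes), the 20 leading genes and up to 4 per list, and genes of the antibody class comparison were named after their values were seen. The plasma cell rule, the 26 lists and the tests were chosen with earlier results of these data known. Alternatives covered the cut, doublets, denominators, filters, single cells and antibody class. Some genes of the lists are not reported here. Gene positions are GRCm38.p6. Python 3.11.15, numpy 2.4.6, scipy 1.17.1, pandas 2.3.3 and matplotlib 3.10.9 were used.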

Additional observations from a re-analysis of the deposited data

How the results depend on the processing

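No paired analysis was possible because each group is 1 library. Of 105 alternatives for shares, 101 stayed within the counting interval, although the order of the plasma cell shares changed without limits on other lineages. The others were the plasma cell share over all filtered barcodes (0.478%, 0.314% and 0.141%) and the mock cycling share at 2 or more UMIs (58.6%). Genes past 2-fold numbered 190, 302 and 294 for AAV-sgBaat over AAV-sgSCR, AAV-sgBaat over mock and AAV-sgSCR over mock. In IgA cells alone they were 52, 155 and 141, with at least 50 UMIs 49, 102 and 84, and with 1 UMI in both libraries as the only filter 2446, 2699 and 1275 (2244, 2430 and 683 of them higher). Without limits on other lineages the first 2 were 423 and 472, and without cycling cells 123 and 135. Without the deepest cell of each library the second was 160, and with all gene UMIs as denominator the third was 513. For IgA over other cells in AAV-sgSCR, 195 became 124 without the deepest cell. With 1 UMI as filter, genes with at most 3 UMIs in both libraries counted as past 2-fold higher in AAV-sgBaat. This follows from setting sums under 3 to 3 and from the smaller AAV-sgBaat sum. Fewer genes or cells enter several of the other settings, and otherwise the cause was not tested. Of 420 alternatives for named genes, 365 stayed within their counting interval and 3 reversed, all in IgA cells alone for AAV-sgBaat over AAV-sgSCR: Slpi (0.23), Ly6c2 (0.37) and Oosp1 (2.23). The Oosp1 value comes from setting a sum of 0 to 3. It had 0 UMIs in IgA cells of AAV-sgBaat against 1 in those of AAV-sgSCR, so it was not higher in AAV-sgBaat. Of 414 for list medians, 386 stayed and 1 reversed, proliferation for AAV-sgSCR over mock in IgA cells alone (1.34). AAV-sgBaat holds 10 plasma cells, which limits the depth of its values. IgM cells alone could not be compared, since 1 library held them. The IgA setting (other than for list medians of AAV-sgSCR over mock), the setting without cycling cells and those without cells under 5000 UMIs were chosen after seeing the data.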

Other observations

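The barcodes with plasma cell levels of Jchain that exceeded a limit on another lineage also made mostly IgA, with 2 of 2 in mock, 8 of 11 in AAV-sgSCR and 6 of 7 in AAV-sgBaat. IgM was made by 1 of them in AAV-sgSCR and 1 in AAV-sgBaat, and IgG by 2 in AAV-sgSCR. Their median depth was 23286.5, 28128 and 6041 gene UMIs, against 16520, 16226 and 15259 in the plasma cells. They were 6.45%, 32.4% and 41.2% of all barcodes with such Jchain levels in mock, AAV-sgSCR and AAV-sgBaat.

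The antibody tag for CD90.1, an allelic form of a T cell antigen, had a median of 20, 38 and 133 counts in the plasma cells of mock, AAV-sgSCR and AAV-sgBaat, against 18, 29 and 35 in the B cell gate and 18, 146 and 321.5 in the T cell gate. In AAV-sgBaat the plasma cells ranged from 28 to 530 counts, and their median lay between the medians of both gates. The tag for CD90.2 had medians of 37, 32 and 21.5 in plasma cells and 1006, 247 and 51 in the T cell gate.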
